A study of Sus scrofa with 36 samples.

Results

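PECAM1, KDR, TEK and RASIP1 are 4 genes of the endothelium, the cell layer that lines blood and lymph vessels, and their transcripts were followed here in the subcutaneous fat of lean, intermediate and obese pigs. They are 4 of the 12253 genes in the normalised RNA-Seq table and were found in it by Ensembl pig gene ID: ENSSSCG00000017277 for PECAM1, ENSSSCG00000008844 for KDR, ENSSSCG00000005122 for TEK and ENSSSCG00000029151 for RASIP1. PECAM1, KDR and TEK were selected as known endothelial markers, and RASIP1 was selected on its measured difference between obese and lean pigs. It ranked 6 of 12253 genes by unadjusted p in that contrast, where PECAM1 ranked 658, KDR 2228 and TEK 3703. The differences between obesity groups of these 4 genes are therefore given as a description, with no p-value.

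The animals were 36 F2 pigs of an intercross between the Duroc, a production breed selected for leanness, and the Göttingen Minipig, a small breed prone to obesity. An Obesity Index, a genetic score of the degree of obesity, placed 12 pigs in a lean group (labelled Low), 12 in an intermediate group (Mean) and 12 in an obese group (High). The lean group held 7 males and 5 females, and each of the other groups held 6 males and 6 females. A few full sibs were allowed within a group, and all pigs were slaughtered at about the same weight, at which lean pigs were the oldest, so that group and age cannot be told apart. Each library represents the whole tissue of 1 pig, and in such bulk samples fewer endothelial cells and less RNA per endothelial cell cannot be told apart.

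In the vessel wall, PECAM1 (CD31) is an adhesion molecule at the contacts between endothelial cells, and platelets and some leukocytes carry it too. KDR, the main signalling receptor for VEGFA, drives endothelial growth and sprouting, and TEK (TIE2) is the receptor through which the angiopoietins keep vessels quiescent or make them remodel. RASIP1 is an effector of the small GTPase RAP1 in endothelial cells, where it works with RADIL, ARHGAP29 and the receptor HEG1 to hold junctions together and keep vessel lumens open. In fat, the capillary bed supplies adipocytes with oxygen and lipid and passes immune cells into the tissue.

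The libraries held between 8735839 and 11755925 reads in the 12253 genes, with medians of 10159187 (lean group), 10239822 (intermediate group) and 10672358 (obese group). Every pair of pigs correlated between 0.898 and 0.978 over all genes. Lean replicate 7, a male, stood apart in its skin transcripts, with a summed normalised read count of 14390 for 2 skin genes against a lean median of 134, and leaving out lean replicate 2 changed the number of genes called over the whole table, as given below. Without lean replicate 7 the obese minus lean log2 differences of PECAM1, KDR, TEK and RASIP1 were -0.31, -0.38, -0.23 and -0.52, and without lean replicate 2 they were -0.29, -0.39, -0.17 and -0.51, against -0.28, -0.33, -0.18 and -0.51 with all pigs. All 4 genes passed the low-expression filter in every pig, with at least 6015 reads for PECAM1, 562 for KDR, 356 for TEK and 713 for RASIP1. Counting error was at most 1.29% of a pig's value for PECAM1, 4.22% for KDR, 5.30% for TEK and 3.75% for RASIP1. The spread between pigs was larger, with coefficients of variation over all 36 pigs of 18.5%, 32.6%, 22.8% and 23.8% in the same order. Values below are normalised read counts, that is reads divided by the library's size factor. Transcript lengths were not used here, so levels are compared between pigs and not between genes.

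RASIP1 separated the groups most among the 4 genes. In lean pigs its normalised read count ran from 1081 to 1890 with a median of 1453. In intermediate pigs it ran from 807 to 1492 with a median of 1033. In obese pigs it ran from 711 to 1269 with a median of 1022. The lean and obese ranges overlapped in part, since 8 of 12 obese pigs lay below the lowest lean pig and 8 of 12 lean pigs lay above the highest obese pig. Every one of the 12 obese pigs and 11 of 12 intermediate pigs lay below the lean median. From the lean to the obese group the means were 1436 ± 268, 1082 ± 209 and 1024 ± 162 (SD, n = 12 each), so that the obese mean was lower than the lean mean by 28.7% and the intermediate mean by 24.7%. In the limma fit with sex as a term, the obese minus lean difference was -0.51 on the log2 scale (SE 0.107) and the intermediate minus lean difference was -0.44 (SE 0.107). The obese minus intermediate difference of -0.07 (SE 0.106) was smaller than its standard error.

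PECAM1, the adhesion molecule, had the same order of group means with more overlap. Its normalised read count ran from 7009 to 12481 with a median of 9196 in lean pigs, from 6486 to 10897 with a median of 7875 in intermediate pigs and from 5373 to 9510 with a median of 8116 in obese pigs. Only 2 of 12 obese pigs lay below the lowest lean pig, whereas 11 of 12 lay below the lean median, and 5 of 12 lean pigs lay above the highest obese pig. The means were 9516 ± 1895, 8478 ± 1381 and 7895 ± 1085 (SD, n = 12 each) in lean, intermediate and obese pigs, with an obese minus lean log2 difference of -0.28 (SE 0.102), an intermediate minus lean difference of -0.18 (SE 0.102) and an obese minus intermediate difference of -0.10 (SE 0.102). By the median, obese pigs lay above intermediate pigs, so the order of these neighbouring groups depended on the summary used.

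KDR, the VEGF receptor, varied most between pigs. It ran from 835 to 2307 with a median of 1480 in lean pigs, from 815 to 2227 with a median of 1078 in intermediate pigs and from 672 to 1806 with a median of 1089 in obese pigs. The ranges overlapped widely, with 3 of 12 obese pigs below the lowest lean pig and 2 of 12 lean pigs above the highest obese pig. The means were 1427 ± 441, 1201 ± 393 and 1146 ± 370 (SD, n = 12 each), and the obese minus lean log2 difference was -0.33 (SE 0.179), with -0.25 (SE 0.179) for intermediate minus lean and -0.08 (SE 0.179) for obese minus intermediate.

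TEK, the angiopoietin receptor, differed least between obese and lean pigs by the fitted log2 difference. By the median PECAM1 differed least, with a change from lean to obese of -11.7%, against -19.7% for TEK. The TEK count ran from 366 to 848 with a median of 627 in lean pigs, from 378 to 765 with a median of 503 in intermediate pigs and from 374 to 718 with a median of 503 in obese pigs. No obese pig lay below the lowest lean pig, although 11 of 12 lay below the lean median. The means were 586.9 ± 140.4, 537.1 ± 129.5 and 521.1 ± 103.5 (SD, n = 12 each), and the obese minus lean log2 difference was -0.18 (SE 0.126), with -0.15 (SE 0.126) for intermediate minus lean and -0.03 (SE 0.126) for obese minus intermediate.

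**Figure D1:**
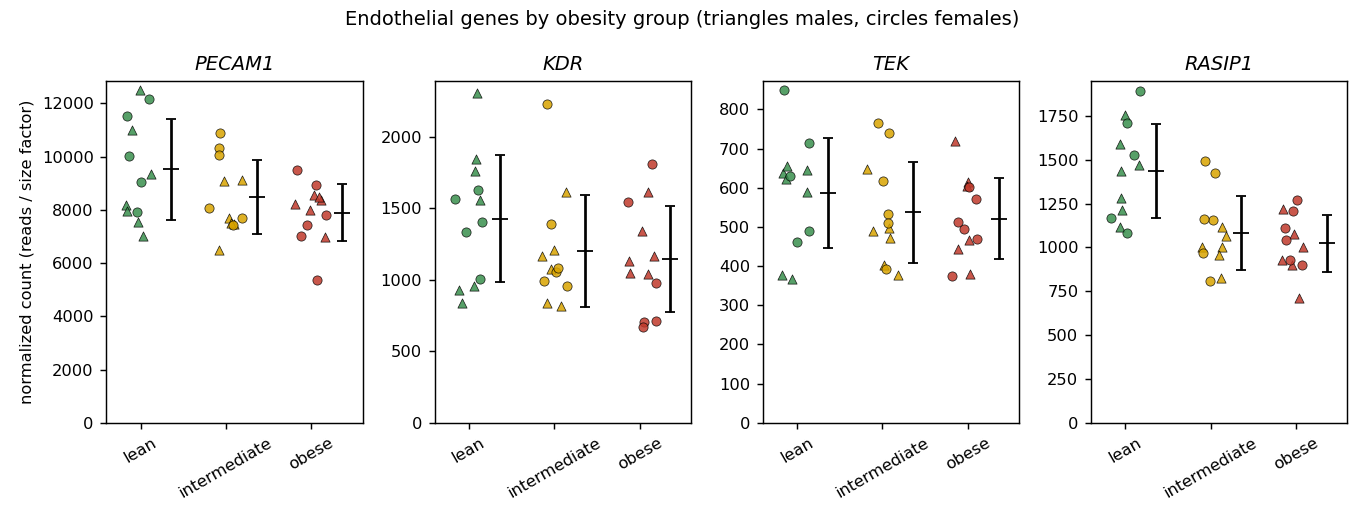
Normalised read count (reads divided by size factor, linear axes from 0) of PECAM1, KDR, TEK and RASIP1 in each of 36 pigs by obesity group, with males as triangles, females as circles and black bars for the mean ± SD of 12 pigs. For RASIP1, 8 of 12 obese pigs sit below the lowest lean pig, against 2 for PECAM1, 3 for KDR and 0 for TEK.

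None of the 4 genes passed a Benjamini-Hochberg adjusted threshold of 0.05 in limma for obese against lean pigs, where 5 of 12253 genes did (0.0408%), a count that became 292 without lean replicate 2 and 1 without lean replicate 3. At an unadjusted p under 0.05, PECAM1 and RASIP1 counted as lower in obese pigs, as did 7.88% of all genes, and since the genes were proposed with this contrast known nothing is read from that count. For intermediate against lean pigs no gene of the table passed the adjusted threshold in limma (0%), with 1535 genes at an unadjusted p under 0.05. RASIP1 was among the 1535 and the other markers were not, and nothing is read from this, since the lean pigs are those on which RASIP1 was selected. For obese against intermediate pigs again no gene passed in limma (0%), with 524 at an unadjusted p under 0.05 and none of the 4 among them.

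RASIP1 was also lower relative to the other markers of the same pig. Its log2 value minus the mean log2 value of PECAM1, KDR and TEK ran from -0.82 to -0.14 with a median of -0.48 in lean pigs, from -1.11 to -0.30 with a median of -0.66 in intermediate pigs and from -1.16 to -0.06 with a median of -0.73 in obese pigs. The means were -0.46 ± 0.189, -0.69 ± 0.219 and -0.69 ± 0.295 (SD, n = 12 each). Of 12 obese pigs, 10 lay below the lean median and 4 below the lowest lean pig. Relative to the mean of 26 other endothelial genes, described next, the obese minus lean difference of RASIP1 was -0.28, with 11 of 12 obese pigs below the lean median and 8 below the lowest lean pig. These differences rest on the contrast with which RASIP1 was selected and are a description.

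**Figure D2:**
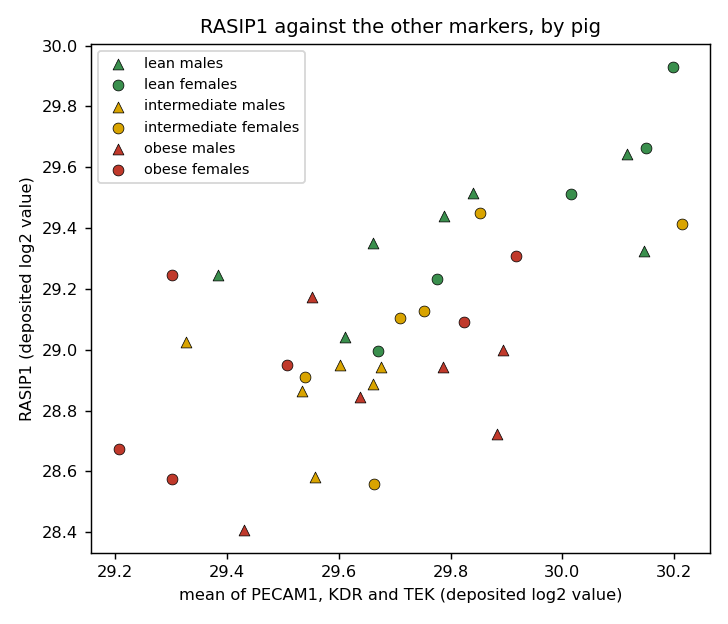
Log2 value of RASIP1 against the mean log2 value of PECAM1, KDR and TEK, as deposited, for each of 36 pigs, coloured by obesity group with males as triangles and females as circles. The mean vertical distance of RASIP1 from the other markers is -0.46 in lean and -0.69 in obese pigs.

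A list of 45 other endothelial genes had 26 that could be matched to the table by symbol. VWF and CDH5, defining genes of the endothelium, were among the unmatched and were not analysed here. This list and those that follow were chosen with earlier results of these data known, so their counts beside all genes are a description. Of the 26 genes, 22 had a lower and 4 a higher level in obese than in lean pigs by the fitted log2 difference, and the median difference was -0.30, against -0.01 over all genes. None passed the adjusted threshold in limma, with 14 at an unadjusted p under 0.05, of which 13 were lower and 1 was higher, where 7.88% of all genes were lower and 6.81% higher by that rule. The 3 largest differences were those of ARHGEF15, a gene of endothelial cells, NOS3, the endothelial nitric oxide synthase, and EFNB2, the ephrin of arterial endothelium. ARHGEF15 was 567 ± 215 in lean and 359 ± 98.5 in obese pigs (SD, n = 12 each), a log2 difference of -0.63 (SE 0.176, limma adjusted p = 0.0855). NOS3 was 991 ± 365 and 646 ± 125 (SD, n = 12 each), a difference of -0.60 (SE 0.184, limma adjusted p = 0.108). EFNB2 was 107 ± 33.4 and 73.7 ± 22.1 (SD, n = 12 each), a difference of -0.57 (SE 0.201, limma adjusted p = 0.158). The male minus female difference in this contrast was -0.20 for ARHGEF15, 0.56 for NOS3 and 1.06 for EFNB2 (limma adjusted p = 0.841, 0.514 and 0.245). The EFNB2 fall was thus larger in females, a sex difference that missed the threshold. For each of these 3 genes all 12 obese pigs lay below the lean median, as for RASIP1. VCAM1, an adhesion molecule that captures leukocytes on activated endothelium, went the other way, at 1360 ± 278 in lean and 2033 ± 386 in obese pigs (SD, n = 12 each), with a difference of 0.55 (SE 0.137, limma adjusted p = 0.0739). It was singled out after its values were seen.

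The count of 13 lower genes was 9 when only females and 3 when only males were fitted, where the share of all genes lower by the same rule was 9.88% in females and 4.46% in males. In the fit of all pigs by sex, 1271 of 12253 genes were lower in females and 527 in males. With voom weights and the whole size factor together these were 849 and 682. The count of lower endothelial genes ran from 7, without lean replicate 6, to 15 when each pig was left out in turn. Without lean replicate 8, 4 of the 26 genes passed the adjusted threshold, and without lean replicate 2, 3 did. Of all 12253 genes, 89 were higher and 115 lower past it without lean replicate 8, and 191 and 101 without lean replicate 2. In intermediate against lean pigs the list had a median of -0.21, with 22 of 26 genes lower, 7 of them at an unadjusted p under 0.05, where 6.81% of all genes were lower by that rule, and none past the adjusted threshold in limma.

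**Figure D3:**
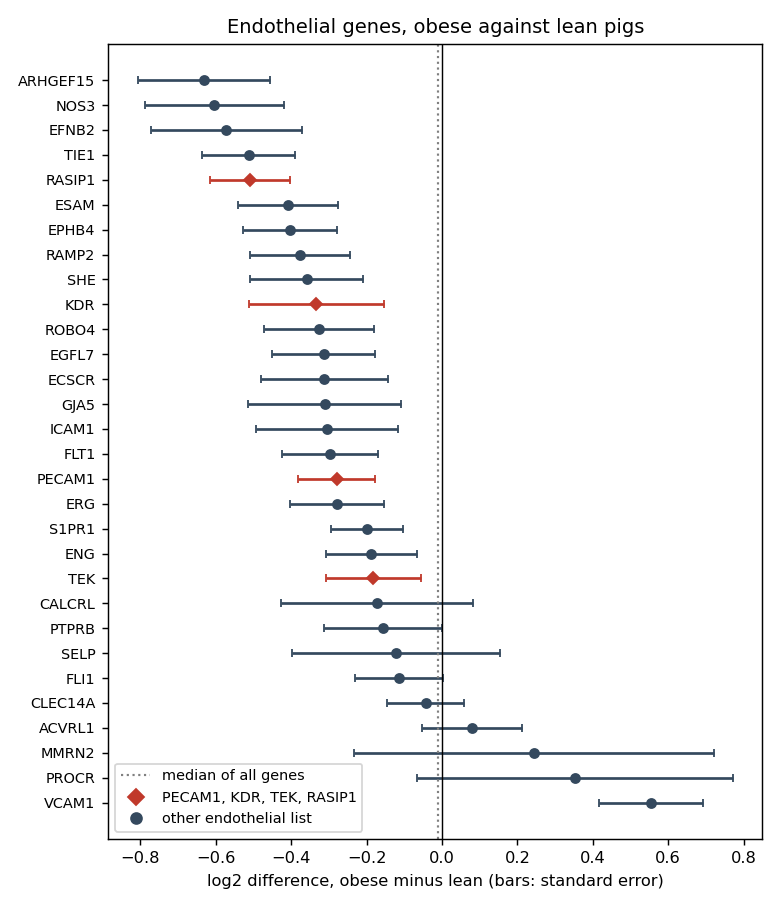
Obese minus lean log2 difference (points, with bars for the standard error) of PECAM1, KDR, TEK and RASIP1 as red diamonds and of 26 other endothelial genes as dark circles, with the median of all genes as a dotted line. RASIP1 at -0.51 sits beside TIE1 near the low end, and VCAM1 at 0.55 has the highest difference.

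Around KDR, 9 genes of the VEGF system were measured, with a median obese minus lean difference of -0.30, 7 of 9 below 0, none past the adjusted threshold in limma and 4 lower at an unadjusted p under 0.05, beside 7.88% of all genes. Over all genes, 6435 of 12253 lay below 0. The ligand VEGFA was 872 ± 247 in lean and 686 ± 126 in obese pigs (SD, n = 12 each), a difference of -0.32 (SE 0.165, limma adjusted p = 0.367). FLT1, the other main receptor of VEGFA, differed by -0.30 (SE 0.128). The largest differences were those of FLT4, the receptor of VEGFC on lymphatic endothelium, at -0.53 (SE 0.252), the receptor adaptor SHB at -0.40 (SE 0.180) and the signalling enzyme PLCG1 at -0.35 (SE 0.096). The male minus female difference in this contrast was 1.10 for FLT4, -0.28 for SHB and 0.24 for PLCG1 (limma adjusted p = 0.337, 0.772 and 0.596). KDR itself, at -0.33, lay within the range of these genes.

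Around TEK, 6 genes of the angiopoietin and TIE system were measured, with a median difference of -0.26, 5 of 6 below 0, none past the adjusted threshold in limma and 2 lower at an unadjusted p under 0.05, beside 7.88% of all genes. FLT1 of the VEGF system and TIE1 and PTPRB of the TIE system are also among the 26 endothelial genes, so these lists are not separate sets. The TIE median was -0.55 in females, with 5 of 6 below 0, and -0.02 in males, with 3 of 6 below 0. TIE1, the receptor that pairs with TEK, had the largest, at 1057 ± 245 in lean and 745 ± 145 in obese pigs (SD, n = 12 each), a difference of -0.51 (SE 0.123, limma adjusted p = 0.0709) with all 12 obese pigs below the lean median. The ligand ANGPT1, which activates TEK, differed by -0.35 (SE 0.168), and ANGPT4 differed by -0.42 (SE 0.325). ANGPT2, the ligand released by activated endothelium, was 204 ± 41.9 in lean and 245 ± 70.8 in obese pigs (SD, n = 12 each), a difference of 0.22 (SE 0.160, limma adjusted p = 0.536). TEK itself, at -0.18, was nearer to 0 than TIE1.

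Around RASIP1, 19 genes of RAP1 signalling and its partners were measured, with a median difference of 0.04, 11 of 19 above 0, none past the adjusted threshold in limma and 4 lower at an unadjusted p under 0.05, beside 7.88% of all genes. ARHGAP29, a partner that RASIP1 recruits, was 1069 ± 354 in lean and 875 ± 196 in obese pigs (SD, n = 12 each), a difference of -0.30 (SE 0.137, limma adjusted p = 0.294). RAPGEF3 (EPAC1), which activates RAP1 in response to cyclic AMP, had the largest difference at -0.45 (SE 0.161, limma adjusted p = 0.167), and the junction adaptor AFDN differed by -0.26 (SE 0.109). The partners RADIL and HEG1 each differed by 0.06, with standard errors of 0.150 and 0.171, and the GTPase RAP1A differed by 0.15 (SE 0.0738). RAP1B was not analysed here. Many genes of this list, such as CDC42, are used by every cell type of the tissue.

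Of 12 endothelial junction partners the median was -0.14, 10 lay below 0, none passed in limma and 4 were lower at an unadjusted p under 0.05, beside 7.88% of all genes. The tight junction protein OCLN had the largest difference at -0.54 (SE 0.196), followed by the junction molecule ESAM, also among the 26 endothelial genes, at -0.41 (SE 0.132) and the kinase FYN at 0.35 (SE 0.202). Of 9 Notch genes, which control sprouting and arterial identity, the median was -0.34, 8 lay below 0, none passed in limma and 4 were lower at an unadjusted p under 0.05, again beside 7.88%. The Notch target HEY1 was 187 ± 64.6 in lean and 117 ± 20.5 in obese pigs (SD, n = 12 each), a difference of -0.62 (SE 0.170, limma adjusted p = 0.0791), with -0.52 (SE 0.290) for HEY2 and -0.42 (SE 0.202) for the ligand DLL1.

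Markers of other cell types in the tissue were compared between the same groups, and with both sexes together none passed the adjusted threshold in limma. All 9 measured macrophage genes were higher in obese than in lean pigs, with a median log2 difference of 0.80, 8 of them at an unadjusted p under 0.05, where 6.81% of all genes were higher by that rule. The largest was that of the scavenger receptor MSR1, at 1.55 (SE 0.486). Their summed normalised read count ran from 2230 to 11275 with a median of 3250 in lean pigs and from 4862 to 12044 with a median of 8528 in obese pigs. Of 6 T or NK cell genes all were higher, with a median of 0.72 and 2 at an unadjusted p under 0.05, beside the same 6.81%. The 8 adipocyte genes had a median of 0.06 and summed to 67957 ± 16784 in lean and 77986 ± 18345 in obese pigs (SD, n = 12 each). The 9 mural cell genes, of pericytes and smooth muscle, had a median of -0.19, and the 7 fibroblast or progenitor genes one of 0.18. The 2 red cell genes had a median of 0.81 and the 2 skin genes one of -0.64, none of these 4 at an unadjusted p under 0.05. The skin value includes lean replicate 7, whose sum of 14390 was the highest of all pigs, the next being 1039 in an intermediate pig. A limma test of males against females in the obese minus lean contrast marked no gene of these lists past the adjusted threshold. Marked at an unadjusted p under 0.05 were 0 of 9 macrophage, 0 of 6 T or NK cell and 0 of 7 fibroblast or progenitor genes. Of 9 mural genes 1 was positive and 1 negative by that rule, where 1219 and 358 of 12253 genes were. The values by sex are a description. The macrophage median was 0.99 in males, with 7 of 9 genes higher at an unadjusted p under 0.05, and 0.66 in females, with 0 of 9. The T or NK cell median was 0.25 in males, with 0 of 6 at that threshold, and 1.3 in females, with 5 of 6. Over all genes, 1042 of 12253 were higher by that rule in males and 659 in females. The mural median was 0.14 in males and -0.45 in females, and the fibroblast or progenitor median was 0.48 and -0.25. In females 1 mural gene, CSPG4, was higher past the adjusted threshold in limma, beside 2 of all 12253 genes. No gene matched for B cells or skeletal muscle. The part of these other cell types in the differences of PECAM1, KDR, TEK and RASIP1 was not tested.

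**Figure D4:**
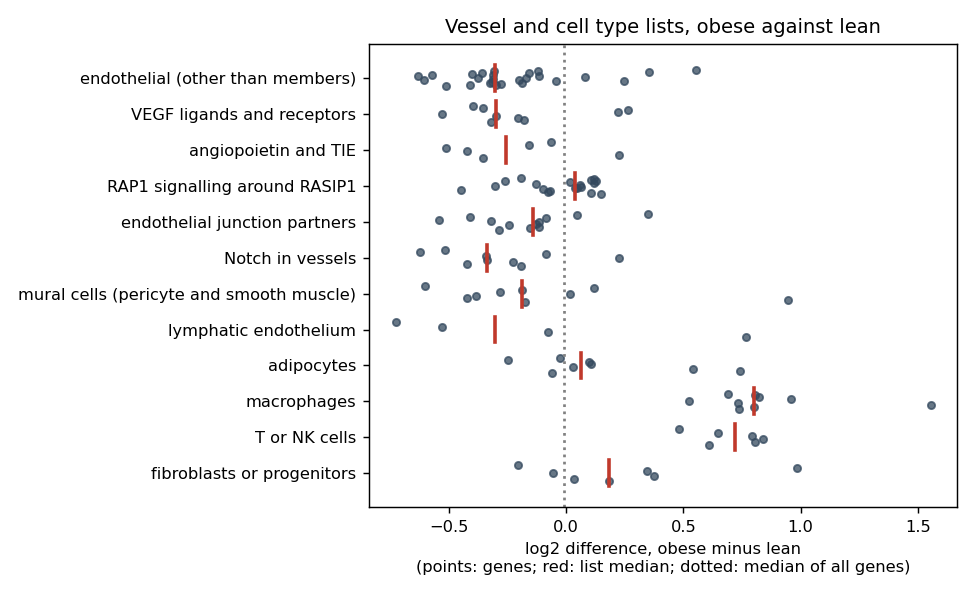
Obese minus lean log2 difference of each measured gene (points) in 12 lists of vessel pathway and cell type genes, with the list median as a red bar and the median of all genes as a dotted line. The endothelial, VEGF and Notch medians lie at -0.30, -0.30 and -0.34 and the macrophage and T or NK cell medians at 0.80 and 0.72.

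Sex, which played no part in the choice of genes, was tested next. None of the 4 genes differed between males and females past the adjusted threshold in limma, where 268 of 12253 genes did (2.19%), and none did at an unadjusted p under 0.05. The male minus female log2 difference was -0.10 for PECAM1 (95% interval -0.27 to 0.07, limma adjusted p = 0.555) and 0.03 for KDR (95% interval -0.27 to 0.33, limma adjusted p = 0.945). It was -0.14 for TEK (95% interval -0.35 to 0.07, limma adjusted p = 0.495) and -0.15 for RASIP1 (95% interval -0.33 to 0.03, limma adjusted p = 0.363). The intervals leave room for differences of either sign. None of the 26 other endothelial genes passed. In the VEGF system the lymphatic growth factor VEGFD and the coreceptor NRP2 were lower in males, by log2 differences of -0.81 (limma adjusted p = 0.0235) and -0.46 (limma adjusted p = 0.0283), and the junction molecule JAM3 was higher in males by 0.45 (limma adjusted p = 0.0233).

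Within each sex, PECAM1, KDR and TEK had a smaller obese minus lean difference in males than in females, and RASIP1 had nearly the same in both. In females PECAM1 was 10136 ± 1743 in 5 lean and 7680 ± 1464 in 6 obese pigs (SD), a log2 difference of -0.47 (SE 0.147). In males it was 9074 ± 2003 in 7 lean and 8110 ± 581 in 6 obese pigs (SD), a difference of -0.11 (SE 0.135). KDR differed by -0.53 (SE 0.265) in females and -0.15 (SE 0.243) in males, and TEK by -0.36 (SE 0.184) and -0.02 (SE 0.169). RASIP1 was 1475 ± 347 in 5 lean and 1076 ± 147 in 6 obese females, and 1408 ± 222 in 7 lean and 971 ± 171 in 6 obese males (SD), with log2 differences of -0.49 (SE 0.162) and -0.52 (SE 0.149).

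The difference between the sexes in the obese minus lean contrast did not pass the adjusted threshold for any of the 4 genes, where 1 of 12253 genes did (0.00816%). As male minus female it was 0.35 for PECAM1 (95% interval -0.05 to 0.76, limma adjusted p = 0.446), 0.38 for KDR (95% interval -0.35 to 1.11, limma adjusted p = 0.667) and 0.34 for TEK (95% interval -0.17 to 0.84, limma adjusted p = 0.571). For RASIP1 it was -0.02 (95% interval -0.47 to 0.42, limma adjusted p = 0.973). Over all genes the median of this difference was 0.09, and 9.95% of genes had a positive one at an unadjusted p under 0.05, with none of the 4 genes among them. That median was 0.0039 with median centring and 0.0024 with voom weights and the whole size factor together. Over the alternatives with no single pig left out, the lowest difference was 0.26 for PECAM1, 0.30 for KDR, 0.25 for TEK and -0.11 for RASIP1. With 5 to 7 pigs in each sex of the lean and obese groups, a difference between the sexes of the size seen for PECAM1, KDR and TEK was not told apart from 0.

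**Figure D5:**
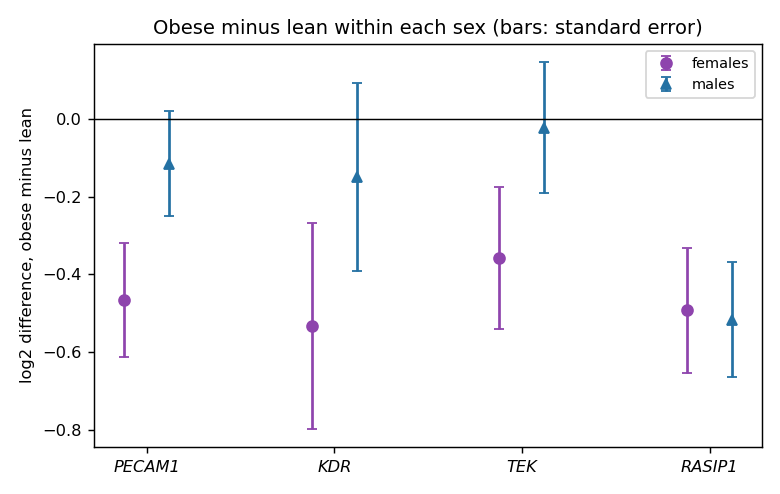
Obese minus lean log2 difference of PECAM1, KDR, TEK and RASIP1 in females (circles) and males (triangles), with bars for the standard error. For PECAM1, KDR and TEK the male point is nearer to 0 than the female point, and for RASIP1 the points lie at -0.49 and -0.52.

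The 4 genes varied together only in part. Over the 36 pigs, after group and sex were removed, Pearson's r was 0.501 (jackknife SE 0.183, Spearman 0.492) between PECAM1 and RASIP1, 0.477 (SE 0.125, Spearman 0.448) between KDR and RASIP1 and 0.444 (SE 0.128, Spearman 0.387) between PECAM1 and KDR. The pairs with TEK were lower, at 0.323 (SE 0.159, Spearman 0.310) with PECAM1, 0.244 (SE 0.193, Spearman 0.221) with RASIP1 and 0.0898 (SE 0.176, Spearman 0.0860) with KDR. These 6 correlations are descriptions, and both genes of a pair come from the same library. The reads of the library were also set against the deposited log2 values, which the limma fits used, after group and sex were removed from both. Pearson's r over pigs was 0.327 for PECAM1, 0.313 for KDR, -0.155 for TEK and 0.237 for RASIP1. With the log2 of the normalised read counts it was 0.140, 0.214, -0.286 and 0.0655.

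The genes whose pattern over pigs was most like that of each of the 4 were taken from the whole table by Pearson's r after group and sex were removed. For PECAM1 they were ERG (0.830), an endothelial transcription factor, EGFL7 (0.785), TIE1 (0.772), CD93 (0.759) and SEMA6A (0.727). For RASIP1 they were ADCY4 (0.832), a gene with no symbol, ENSSSCG00000028291 (0.809), FMNL3 (0.776), ESAM (0.755) and ARHGEF15 (0.743). For KDR they were NMRK1 (0.714), ESAM (0.712), PIK3C2B (0.696), CLPX (0.681) and PDE4B (0.676), and for TEK they were EPAS1 (0.750), ALS2CL (0.675), the unnamed ENSSSCG00000023664 (0.662), ADRA2C (0.652) and ADGRF5 (0.649). ERG, EGFL7, TIE1, ESAM and ARHGEF15 belong to the list of 26 endothelial genes.

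With the 26 other endothelial genes the median r was 0.471 for PECAM1, 0.458 for RASIP1, 0.356 for KDR and 0.172 for TEK, where over all genes it was 0.0273, 0.0660, 0.0268 and -0.0395. With the 9 macrophage genes it was -0.248, -0.304, -0.328 and -0.187 in the same order of genes. With the 7 fibroblast or progenitor genes it was -0.239 for PECAM1, -0.382 for RASIP1, -0.272 for KDR and -0.0614 for TEK, and with the 6 T or NK cell genes 0.0545, 0.243, 0.359 and 0.0370. With the 8 adipocyte genes it was -0.00960 for PECAM1, 0.246 for RASIP1, 0.158 for KDR and 0.204 for TEK.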

How the data were processed

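Poly-A RNA from subcutaneous fat of 36 pigs was sequenced as 100 bp paired-end reads. Per the labels and the study's methods, the authors used STAR (genome build Sscrofa10.2) for alignment and HTSeq for gene counts, dropped low genes, took size factors from DESeq and deposited log2 values from voom. Strand-specific counting is not stated, so reads of overlapping genes, such as lncRNA genes annotated over RASIP1 and PECAM1 in Sscrofa11.1, cannot be told apart. The deposited log2 values equal log2((reads + 0.5) / (size factor + 1)), scaled by a constant: whole reads (within 0.1) were recovered for about 99.9% of values in the pig with the lowest share, with size factors from 0.796 to 1.18. The values thus hold whole reads with no sex correction applied.

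limma 3.58.1 in R 4.3.3 with an intensity trend was fitted to the log2 values of all 12253 genes with group and sex as terms (and their interaction for the sex contrasts), two-sided, with Benjamini-Hochberg adjustment over all genes at 0.05. All pigs entered the main fits. Symbols were known for 8320 genes. No pseudocount was added, since the log2 values hold one. Replicate numbers follow the order of the samples and only name pigs. The sibs and the sequencing lanes were not assigned to pigs here, and p-values take the pigs as independent. In simulated obese and lean data, 178 of 200 genes with a log2 difference of 1 were recovered, and 108 of 200 with one of 0.5. The simulated noise was normal and independent between genes and pigs, so this recovery need not hold for the real data.

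The 4 genes and the gene lists were chosen with earlier results of these data known. Named genes were the 4 genes, the genes of each list past the threshold or else the 3 with the largest obese minus lean difference, defining endothelial genes, ligands and RASIP1 partners, and the 5 genes most like each of the 4. Alternatives were a fit without sex, lean and obese pigs only, no trend, the lowest 25% of genes removed, median centring, voom weights together with the whole size factor in place of size factor + 1, each sex alone and each pig left out.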

Additional observations from a re-analysis of the deposited data

Results flagged for a closer look

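In 24 groups of 1 gene, 1 obesity group and 1 sex, Dixon's test at the 95% level marked 2 single pigs, and chance marks about 1 in 20 such groups. PECAM1 in obese males was lowest in replicate 4, at a normalised read count of 6995, where the other 5 obese males lay between 8008 and 8561. The mean of obese males was 8110 with and 8333 without that pig. KDR in intermediate females was highest in replicate 3, at 2227, where the other 5 lay between 957 and 1388. The mean of intermediate females was 1283 with and 1095 without that pig.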

How the results depend on the processing

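The obese minus lean and intermediate minus lean differences of PECAM1, KDR, TEK and RASIP1 were below 0 in every alternative fit and with each pig left out. Over the alternatives other than leaving out a pig, RASIP1 stayed between -0.52 and -0.49 for obese minus lean. PECAM1, KDR and TEK ranged there from -0.47 to -0.11, -0.53 to -0.15 and -0.36 to -0.02, the ends being single-sex fits. With each pig left out, RASIP1 ran from -0.56 to -0.46. PECAM1 then ran from -0.31 to -0.23, KDR from -0.40 to -0.26 and TEK from -0.24 to -0.13. The obese minus intermediate differences of PECAM1, KDR and TEK reached 0.07, 0.17 and 0.17 in a single-sex fit. RASIP1 passed the adjusted threshold (1 of 4 genes in place of 0) without the trend, with median centring and with voom weights joined to the whole size factor, and the count ran from 0 to 1 with pigs left out. Since RASIP1 was selected on this contrast, these calls are a description and lend it no support.

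The number of genes called over the whole table for obese against lean, 5, became 3 without sex, 17 with lean and obese pigs only, 12 without the trend, 1 with the lowest 25% of genes removed, 9 with median centring, 17 with voom weights and the whole size factor together, 2 in males and 21 in females. With each pig left out it ran from 1, without lean replicate 3, to 292, without lean replicate 2, and the cause was not tested. Of the other endothelial genes, 3 were lower at an unadjusted p under 0.05 in males only, where 4.46% of all genes were, against 7.88% in all pigs, and 7 to 15 with pigs left out. Those called for obese against lean ran from 0 to 4. Those called for males against females were 1 with median centring and 1 with voom weights and the whole size factor together, and 0 to 2 with pigs left out. Over all genes, males against females gave 123 with lean and obese pigs only and 147 to 546 with pigs left out.

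With pigs left out, signs also turned for differences close to 0: obese minus intermediate became positive for TEK in 5 of 36 fits, up to 0.0089, and for KDR in 1, at 0.0048. The KDR male minus female difference ran from -0.02 to 0.0859, being -0.0044, -0.00604, -0.0206, -0.0214 and -0.00966 without lean replicate 4 and obese replicates 6, 7, 9 and 10. The RASIP1 sex difference in the obese minus lean contrast ran from -0.14 to 0.09, being 0.034, 0.0929, 0.00026 and 0.0218 without lean replicates 1, 8, 9 and 11 and 0.0421, 0.0298, 0.0636 and 0.000416 without obese replicates 2, 3, 4 and 8. No paired analysis was possible because the labels give no replicate numbers shared between groups.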

Other observations

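With both sexes together, lymphatic and mural genes near these vessels did not move as one group between obese and lean pigs. In females 4 of 4 lymphatic and 8 of 9 mural genes were below 0, with medians of -0.72 and -0.45. In males 2 of 4 and 3 of 9 were, with medians of 0.06 and 0.14. Over all genes 7352 of 12253 lay below 0 in females and 5552 in males. Of 4 lymphatic genes, LYVE1, a hyaluronan receptor that tissue macrophages also carry, was higher by 0.77 (SE 0.325, limma adjusted p = 0.25). Its difference was 1.48 in males and -0.12 in females, and a test of males against females in this contrast gave 1.60 (limma adjusted p = 0.275). RELN and FLT4 were lower by log2 differences of -0.73 (SE 0.324) and -0.53 (SE 0.252). Their male minus female differences in this contrast were 1.24 and 1.10 (limma adjusted p = 0.399 and 0.337), the falls being larger in females. Of 9 mural genes, CSPG4, a pericyte proteoglycan, was 314 ± 123 in lean and 597 ± 206 in obese pigs (SD, n = 12 each), a difference of 0.95 (SE 0.213, limma adjusted p = 0.0683). Within the sexes the CSPG4 difference was 1.49 in females and 0.52 in males, and a test of males against females in this contrast missed the threshold (limma adjusted p = 0.302). In females CSPG4 passed the adjusted threshold in limma, where 2 of 12253 genes were higher and 2 lower past it. DES and ACTA2, which code for muscle desmin and smooth muscle actin, differed by -0.60 (SE 0.501) and -0.42 (SE 0.271).

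In the other lists between obese and lean pigs, none of the following passed the adjusted threshold in limma. The lipid droplet genes PLIN4 and CIDEC differed by 0.74 (SE 0.311) and 0.54 (SE 0.162) and ADIG by -0.25 (SE 0.210). C1QA and FCER1G of macrophages differed by 0.96 (SE 0.303) and 0.82 (SE 0.260). NKG7, CD8A and CCL5 of lymphocytes differed by 0.84 (SE 0.294), 0.81 (SE 0.399) and 0.79 (SE 0.302), and PI16, COL3A1 and LUM of fibroblasts or progenitors by 0.98 (SE 0.422), 0.38 (SE 0.221) and 0.35 (SE 0.245). Between males and females, CCL5 (-1.10), LIPE (-0.55) and PNPLA2 (-0.37) were lower and COL1A2 (0.97) and DCN (0.62) higher in males past the adjusted threshold.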
